A study of Homo sapiens with 519 samples.

Results

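Transcription factors of the TEAD family, their coactivator gene YAP1 and a group of their known target genes were followed through 519 libraries. All were made from SK-N-BE(2) cells, a neuroblastoma line long kept in culture whose MYCN gene is amplified. The members were TEAD1, TEAD2, TEAD3, TEAD4, YAP1, ANKRD1, CCN1, CCN2, AJUBA and AMOTL2. They were chosen by symbol, with no measured value in the rule, though earlier results of these data were known. All 10 were found in each of the 4 deposited count tables, which share 18817 gene symbols once older names are matched. CCN1 is listed as CYR61 and CCN2 as CTGF in the tables of the first and the second experiment, and AJUBA as JUB in that of the second.

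In the TruSeq experiment, a standard RNA-seq assay of 39 libraries, cells received isopomiferin (Isop) or pomiferin (Pom) at 3 or 10 uM, the study's null analog (Null) at 10 uM, or DMSO alone, for 3 h or 6 h, with 3 libraries each. Pomiferin is a prenylated isoflavone, and the stated purpose was to infer kinase targets of isopomiferin and its analogs. Another 3 libraries marked MOCK carry conflicting time labels and were tested against no group. The other 3 experiments used PLATE-seq, a pooled assay that reads the ends of messages. The third held 29 treatments in 3 wells each and 9 DMSO wells at 24 h, assembled to find a potent isopomiferin analog, with known inhibitors of the kinase CK2 beside them. The second held 15 compounds at 2 doses, labelled in mM, for 6 h or 24 h in 3 wells each, with 6 Control wells per time. The first held 90 compounds in 2 wells each, 1 on each of 2 plates, for 24 h at each compound's IC20 concentration, with 8 DMSO wells and 4 wells labelled as without DMSO. Doses in the first and the third carry mostly no unit. All cells were the same MYCN-amplified line, and compounds were diluted from DMSO stocks to 0.1% DMSO per the treatment protocol. The labels do not say that replicates came from separate cultures, so p-values measure the spread between wells, which may be technical.

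Library totals were 17209306 to 33280770 counts in the TruSeq experiment (median 24777169), 706208 to 5263249 in the third (3060676), 608491 to 1901416 in the second (1332697) and 38670 to 3958909 in the first (1790617). All 12 adrenergic neuroblast markers had a median of at least 10 CPM (counts scaled to the same library total) in the TruSeq libraries. Of 9 mesenchymal neuroblastoma markers, among them YAP1 and WWTR1, 7 also had a median of at least 10 CPM in those libraries. Of 12 markers of immune, endothelial, epithelial, fibroblast and Schwann cells, 8 had a median under 1 CPM there, and COL1A1, COL3A1 and DCN were at 10 CPM or more. The other-type markers summed to 156 to 241 CPM in treated and MOCK libraries and 160 to 211 CPM in DMSO libraries of that experiment. Members past the filter on low counts were 10 in the TruSeq experiment, 8 in the second (not YAP1 or CCN2), 8 in the third (not TEAD4 or YAP1) and 9 in the first (not AJUBA). A gene was called changed at a Benjamini-Hochberg adjusted p under 0.05 over all genes in edgeR's quasi-likelihood test, which gave every adjusted p below. In bulk RNA, fewer cells with a message and less message per cell cannot be told apart.

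TEAD proteins bind DNA through a conserved domain but activate little by themselves. The coactivators YAP1 and WWTR1 (TAZ) are held in the cytoplasm when the Hippo kinases LATS1 and LATS2 phosphorylate them, and enter the nucleus to join TEAD when Hippo signalling is low or actin tension is high. ANKRD1 (an ankyrin-repeat stress protein), CCN1 and CCN2 (secreted matricellular proteins) are the targets most used to read YAP activity. AJUBA, a LIM-domain scaffold that restrains LATS kinases, and AMOTL2, an angiomotin that binds YAP, are targets that also act on the pathway. Adrenergic neuroblastoma lines such as SK-N-BE(2) are known for low YAP1, whereas mesenchymal-type lines express it.

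The promoters of 3 targets are shown because all 3 genes rose with podofilox in the first experiment and the TEAD motif can be read in each. They are RefSeq windows of 250 bases in GRCh38.p14, all on the minus strand, written from 5′ to 3′. Those of CCN2 and ANKRD1 lie directly before the gene start, and that of AMOTL2 lies before a start inside the gene. Capitals mark the TEAD motif CATTCC or its reverse complement GGAATG. CCN2 is at chr6:131951373-131951622, ANKRD1 at chr10:90921088-90921337 and AMOTL2 at chr3:134374448-134374697.
CCN2: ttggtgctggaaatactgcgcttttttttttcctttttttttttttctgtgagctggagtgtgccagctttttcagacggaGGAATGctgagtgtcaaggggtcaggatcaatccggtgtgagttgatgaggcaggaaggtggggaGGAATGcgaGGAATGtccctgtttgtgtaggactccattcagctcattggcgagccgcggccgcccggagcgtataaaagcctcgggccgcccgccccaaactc
ANKRD1: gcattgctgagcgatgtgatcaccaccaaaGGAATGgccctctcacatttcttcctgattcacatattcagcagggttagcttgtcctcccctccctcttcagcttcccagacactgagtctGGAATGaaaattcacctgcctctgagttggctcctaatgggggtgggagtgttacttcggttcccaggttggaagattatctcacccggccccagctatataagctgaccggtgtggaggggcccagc
AMOTL2: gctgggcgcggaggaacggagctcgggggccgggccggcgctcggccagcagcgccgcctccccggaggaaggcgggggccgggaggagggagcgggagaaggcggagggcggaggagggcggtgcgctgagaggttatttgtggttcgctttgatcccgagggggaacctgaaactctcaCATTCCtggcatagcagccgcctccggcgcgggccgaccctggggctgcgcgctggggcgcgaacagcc
CCN2 holds 3 TEAD motifs, which begin 169, 104 and 95 bases before the start. ANKRD1 holds 2, at 220 and 128 bases, and 1 AP-1 motif (TGANTCA), and the AMOTL2 window shown holds 1, at 69 bases. The other AMOTL2 window, directly before the gene start, holds no TEAD motif. YAP1 has 1 TEAD motif at 162 bases and AJUBA 1 at 59 bases in 1 of its 2 windows, while the windows of TEAD2 and TEAD3 hold none. Both strands were searched in 10 windows of 7 members (TEAD1, TEAD4 and CCN1 were not analysed here). Among 35116 windows of all genes, 11.9% held the TEAD motif, 0.94% held 2 or more, 6.57% held the AP-1 motif and 1.16% held a CArG box, the site of serum response factor (SRF), which no member's window held. A motif match describes these letters and is not a measured binding site.

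In vehicle-treated cells the factors were far more abundant than their coactivator YAP1. Levels between genes were compared per length in the 6 TruSeq DMSO libraries, as CPM per kb of exon (mean ± SD). TEAD1 stood at 20.7 ± 1.57 and TEAD2 at 19.9 ± 1.38, and their ranges overlapped (18.4 to 22.6 and 17.7 to 21.8). CCN1 came next at 11.4 ± 0.773, clear of TEAD2 above and of TEAD4 below, which stood at 7.61 ± 0.829. CCN2 followed at 5.01 ± 0.524. TEAD3 (3.33 ± 0.162), ANKRD1 (3.28 ± 0.363) and AMOTL2 (2.64 ± 0.357) were lower, and neighbours in that order overlapped. AJUBA, at 2.14 ± 0.429, overlapped AMOTL2, and YAP1 was lowest at 0.257 ± 0.0655, below every value of AJUBA. The coactivator WWTR1 was at 2.34 ± 0.172, above YAP1 in every DMSO library, and VGLL4, a repressor that competes with YAP for TEAD, was at 7.93 ± 0.497. The genes lie on GRCh38.p14 at chr11:12674421-12944737 (TEAD1), chr19:49340595-49362416 (TEAD2), chr6:35473597-35497079 (TEAD3), chr12:2959397-3040676 (TEAD4), chr11:102110447-102233424 (YAP1), chr10:90912096-90921087 (ANKRD1), chr1:85580761-85583950 (CCN1), chr6:131948176-131951372 (CCN2), chr14:22971177-22982551 (AJUBA) and chr3:134355345-134375417 (AMOTL2).

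At 6 h, both isoflavones at 10 uM raised ANKRD1, CCN1, CCN2 and AJUBA, and the TEAD genes either fell or were not called. Isopomiferin at 10 uM changed 6 of 10 members, 4 up and 2 down, where 25.4% of all genes were called. Pomiferin at 10 uM also changed 6, 4 up and 2 down, against 31.5% of all genes. The median log2 change of the members was 0.10 with isopomiferin and 0.20 with pomiferin, against -0.00 and -0.01 over all genes. Treatments of the same time share their 3 DMSO libraries.

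ANKRD1 was at 13.6, 15.6 and 15.6 CPM with isopomiferin at 10 uM and at 16.5, 19.2 and 19.4 CPM with pomiferin at 10 uM, against 5.52, 7.08 and 7.33 CPM in DMSO. All 6 treated libraries lay above all 3 DMSO libraries. The log2 change was 1.19 ± 0.15 (SE; adjusted p = 1.16e-07) for isopomiferin and 1.47 ± 0.14 (SE; adjusted p = 3.72e-10) for pomiferin. CCN1 was at 41.0, 43.6 and 44.4 CPM with isopomiferin and 49.1, 50.7 and 58.1 CPM with pomiferin, against 26.5, 29.6 and 30.6 CPM in DMSO, again with no overlap. Its log2 change was 0.58 ± 0.09 (SE; adjusted p = 4.11e-06) for isopomiferin and 0.87 ± 0.09 (SE; adjusted p = 5.74e-10) for pomiferin.

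CCN2 stood at 19.0, 22.4 and 24.6 CPM with isopomiferin and 19.9, 21.4 and 22.7 CPM with pomiferin, against 10.2, 11.3 and 13.6 CPM in DMSO. The log2 change was 0.93 ± 0.16 (adjusted p = 2.61e-05) for isopomiferin and 0.88 ± 0.16 (adjusted p = 4.67e-05) for pomiferin. AJUBA stood at 17.5, 21.3 and 24.5 CPM with isopomiferin and 17.5, 19.1 and 21.8 CPM with pomiferin, against 10.2, 10.8 and 14.7 CPM in DMSO. Its log2 change was 0.85 ± 0.15 (adjusted p = 5.22e-05) for isopomiferin and 0.72 ± 0.16 (adjusted p = 4.37e-04) for pomiferin. The treated libraries of both genes lay above every DMSO library. AMOTL2, the remaining target, was not called with either compound: it was at 15.6, 15.7 and 16.5 CPM with isopomiferin and 18.3, 19.1 and 20.4 CPM with pomiferin, against 13.6, 18.2 and 18.6 CPM in DMSO.

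Among the factors, TEAD1 and TEAD2 were called lower with isopomiferin, and TEAD2 and TEAD4 with pomiferin. TEAD1 was at 164, 175 and 188 CPM with isopomiferin at 10 uM and 219, 235 and 245 CPM with pomiferin at 10 uM, against 217, 227 and 232 CPM in DMSO. It fell with isopomiferin (log2 change -0.36 ± 0.06 (SE), adjusted p = 2.99e-05); with pomiferin the log2 change was 0.05 ± 0.06 and was not called. The MOCK libraries held 179 to 192.5 CPM of TEAD1, below every 6 h DMSO library. They overlapped the 3 h DMSO libraries, which held 189 to 209 CPM. TEAD4 was at 12.6, 13.4 and 13.9 CPM with pomiferin at 10 uM, against 16.4, 16.7 and 19.8 CPM in DMSO, and fell (log2 change -0.41 ± 0.09 (SE), adjusted p = 3.29e-04); with isopomiferin at 10 uM it was at 14.6, 16.4 and 17.3 CPM and was not called. TEAD2 was at 52.3, 53.7 and 54.7 CPM with isopomiferin and 48.0, 50.7 and 53.8 CPM with pomiferin, against 58.4, 58.7 and 65.1 CPM in DMSO. Its log2 change of -0.25 with pomiferin (adjusted p = 0.00168) held without each library in turn. The -0.18 with isopomiferin did not: it was lost without DMSO replicate 3 or any 1 of the isopomiferin libraries, with an adjusted p of up to 0.199. TEAD3 and YAP1 were not called with either. TEAD3 was at 9.95, 10.4 and 10.5 CPM with isopomiferin and 11.7, 11.8 and 11.8 CPM with pomiferin, against 10.0, 10.4 and 10.7 CPM in DMSO. YAP1 was at 1.41, 1.88 and 2.16 CPM with isopomiferin and 0.589, 1.50 and 1.59 CPM with pomiferin, against 1.19, 1.57 and 2.00 CPM in DMSO.

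**Figure D1:**
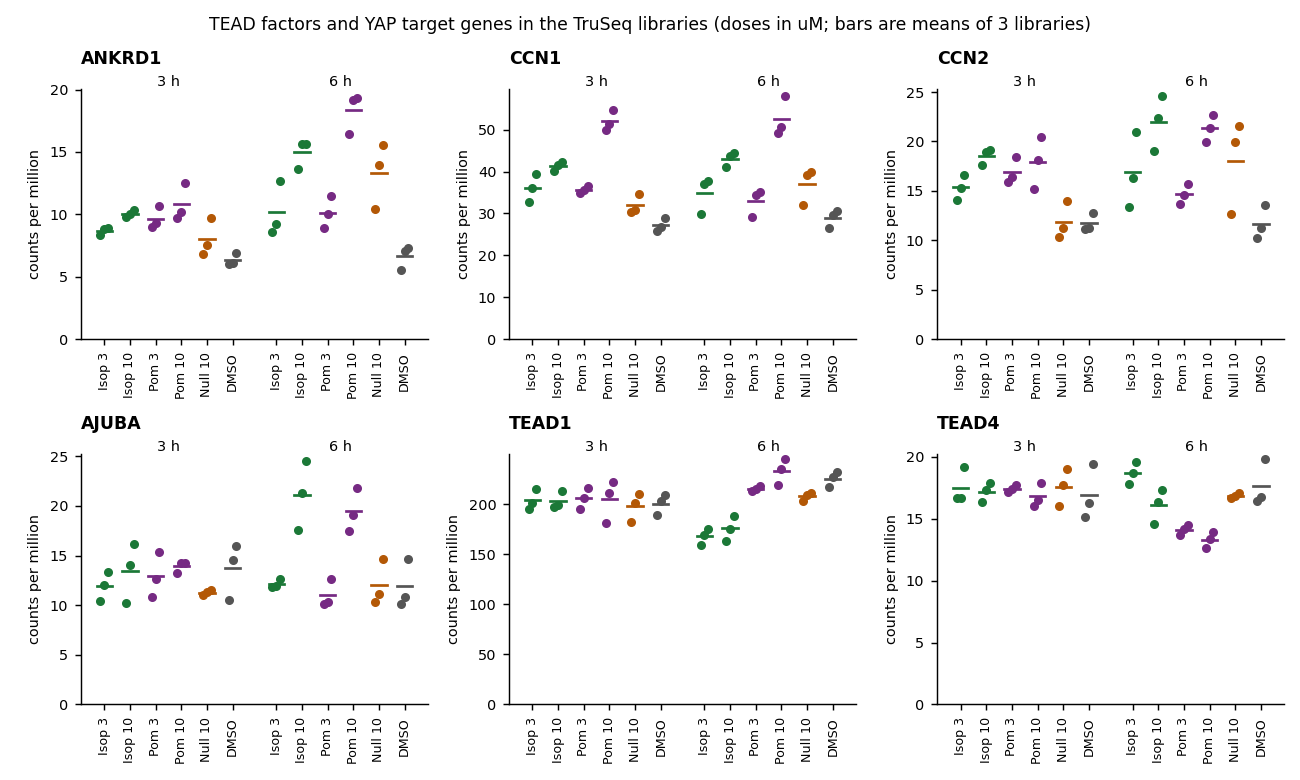
CPM of the members in each TruSeq library at 3 h and 6 h, 1 point per library, with treated groups to the left of DMSO. At 6 h the ANKRD1 points of both isoflavones at 10 uM lie between 13.6 and 19.4 CPM, above the DMSO points, which reach 7.33 CPM.

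The null analog at 10 uM raised 3 members at 6 h and lowered none, where 0.965% of all genes were called. ANKRD1 was at 10.5, 13.97 and 15.6 CPM with the null analog, against 5.52, 7.08 and 7.33 CPM in DMSO, with no overlap (log2 change 1.02 ± 0.15 (SE), adjusted p = 3.60e-05). CCN1 was at 31.9, 39.2 and 40.0 CPM, against 26.5, 29.6 and 30.6 CPM in DMSO (log2 change 0.37 ± 0.09 (SE), adjusted p = 0.0292), also with no overlap. CCN2 was at 12.6, 19.9 and 21.5 CPM, against 10.2, 11.3 and 13.6 CPM in DMSO; 1 null library lay inside the DMSO range (log2 change 0.64 ± 0.16 (SE), adjusted p = 0.0368). Without single libraries, the ANKRD1 call held. The CCN1 call was lost without any DMSO library or null replicate 2 or 3 (adjusted p up to 0.237), and the CCN2 call without DMSO replicate 1 or 2 or null replicate 2 or 3 (up to 0.247).

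At 3 uM for 6 h, isopomiferin changed 4 members (17.9% of all genes) and pomiferin 2 (5.55%). TEAD1 was at 159, 169 and 175 CPM with isopomiferin at 3 uM (log2 change -0.43 ± 0.06 (SE), adjusted p = 3.41e-06) and 213, 215 and 218 CPM with pomiferin at 3 uM, against 217, 227 and 232 CPM in DMSO. TEAD4 was at 13.7, 14.1 and 14.5 CPM with pomiferin at 3 uM, below all DMSO libraries (log2 change -0.33 ± 0.09 (SE), adjusted p = 0.0157); the call was lost without DMSO replicate 1 or pomiferin replicate 1 (adjusted p up to 0.202). ANKRD1 was at 8.59, 9.25 and 12.7 CPM with isopomiferin and 8.91, 10.1 and 11.5 CPM with pomiferin at 3 uM, all above DMSO. Its log2 change was 0.63 (adjusted p = 0.00492) with isopomiferin and 0.62 (adjusted p = 0.0138) with pomiferin. The isopomiferin call was lost without isopomiferin replicate 2 (adjusted p 0.0880), and the pomiferin call without DMSO replicate 1 or pomiferin replicate 2 (up to 0.128). CCN1 (0.28) and CCN2 (0.54) were called with isopomiferin at 3 uM, though libraries overlapped DMSO. Each of these calls was lost without DMSO replicate 1 or isopomiferin replicate 2, as was that of CCN1 without isopomiferin replicate 3 and that of CCN2 without DMSO replicate 2 (adjusted p up to 0.143 for CCN1 and 0.204 for CCN2).

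At 3 h CCN1, CCN2 and ANKRD1 were already up at 10 uM of either isoflavone, and each of the 8 calls against DMSO at that time was of a target gene. Isopomiferin at 10 uM raised 3 members (4.19% of all genes called) and pomiferin at 10 uM raised 4 (4.19%); neither lowered any. CCN1 was at 40.1, 41.6 and 42.3 CPM with isopomiferin and 49.9, 51.4 and 54.7 CPM with pomiferin, against 25.9, 26.8 and 28.8 CPM in DMSO. The log2 change was 0.60 ± 0.10 (SE; adjusted p = 7.16e-05) for isopomiferin and 0.93 ± 0.09 (SE; adjusted p = 6.02e-09) for pomiferin. ANKRD1 was at 9.78, 10.0 and 10.4 CPM with isopomiferin and 9.70, 10.2 and 12.5 CPM with pomiferin, against 6.02, 6.08 and 6.91 CPM in DMSO. CCN2 was at 17.6, 19.0 and 19.1 CPM with isopomiferin and 15.2, 18.1 and 20.5 CPM with pomiferin, against 11.1, 11.3 and 12.8 CPM in DMSO. Treated and DMSO libraries did not overlap in any of the 3 genes.

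AMOTL2 was called at 3 h with pomiferin at 10 uM, at 19.7, 21.7 and 23.8 CPM, against 14.2, 14.3 and 15.9 CPM in DMSO (log2 change 0.55 ± 0.11 (SE), adjusted p = 0.00122). The log2 changes of ANKRD1 were 0.68 (adjusted p = 0.0224) with isopomiferin and 0.78 (adjusted p = 0.00361) with pomiferin. Those of CCN2 were 0.67 (adjusted p = 0.0227) with isopomiferin and 0.62 (adjusted p = 0.0312) with pomiferin. The isopomiferin calls of ANKRD1 and CCN2 and the pomiferin call of CCN2 did not hold without each library in turn. That of ANKRD1 was lost without any isopomiferin library or DMSO replicate 2 or 3 (adjusted p up to 0.101). That of CCN2 was lost without isopomiferin replicate 1 or 2 or DMSO replicate 1 or 3 (up to 0.104) and, with pomiferin, without pomiferin replicate 2 or 3 or any DMSO library (up to 0.182).

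Isopomiferin at 3 uM for 3 h raised CCN1 alone, at 32.7, 36.0 and 39.3 CPM, against 25.9, 26.8 and 28.8 CPM in DMSO (log2 change 0.41 ± 0.10 (SE), adjusted p = 0.0179; 1.72% of all genes called). That call was lost without isopomiferin replicate 1 or 2 or DMSO replicate 1 or 3 (adjusted p up to 0.134). With pomiferin at 3 uM for 3 h edgeR called no member (0.339% of all genes), 4 had an unadjusted p under 0.05 and DESeq2 called 2. With the null analog at 3 h edgeR and DESeq2 called none (0.104% of all genes) and 1 had an unadjusted p under 0.05.

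**Figure D2:**
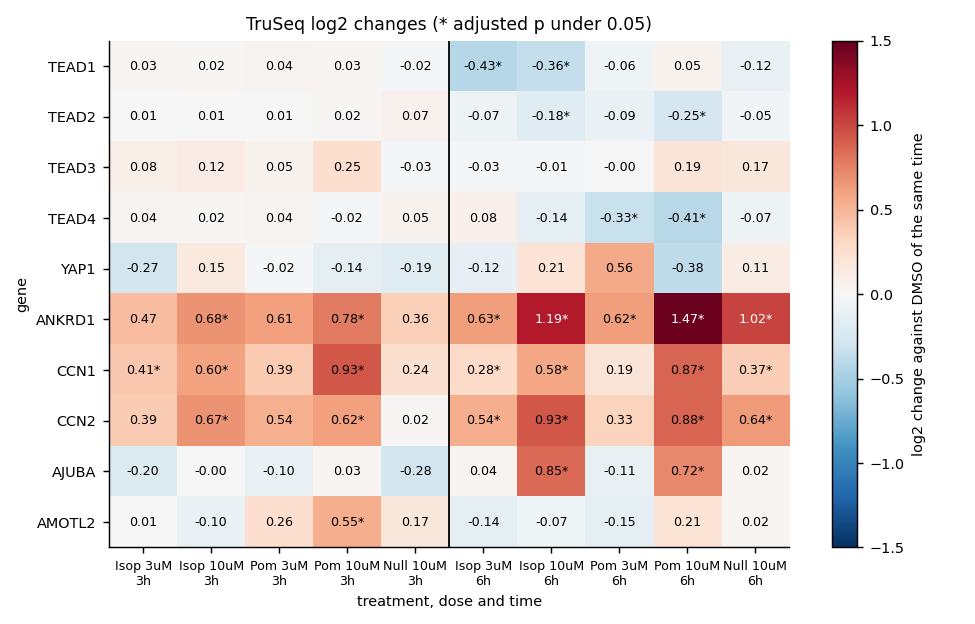
Log2 change of each member against DMSO of the same time in the TruSeq experiment, with calls at an adjusted p under 0.05 marked. The changes of ANKRD1, CCN1 and CCN2 are above 0 with both isoflavones at 10 uM, and that of TEAD1 is below 0 at 6 h with isopomiferin.

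The related compounds were compared directly at matched dose and time, in 8 pairs over all genes, and 20 of 80 member tests were called. The share of all genes called ran from 0.620% to 29.9% between the pairs. It is given for each pair below, and the pooled count cannot be read without it. At 10 uM for 6 h, isopomiferin against pomiferin gave 3 calls (12.7% of all genes). TEAD1 was lower with isopomiferin (log2 change -0.41 ± 0.06 (SE), adjusted p = 1.46e-05), as was CCN1 (log2 change -0.29 ± 0.08 (SE), adjusted p = 0.0148), and TEAD4 was higher with isopomiferin (log2 change 0.27 ± 0.09 (SE), adjusted p = 0.0439). The CCN1 call was lost without isopomiferin replicate 1 or pomiferin replicate 3 (adjusted p up to 0.116), and the TEAD4 call without isopomiferin replicate 1 or 2 or any pomiferin library (up to 0.210). ANKRD1 differed by -0.28 (95% interval -0.53 to -0.04, adjusted p = 0.129), CCN2 by 0.05 (-0.24 to 0.34) and AJUBA by 0.13 (-0.15 to 0.42), none of them called. At 3 uM for 6 h the TEAD differences were also called (13.2% of all genes): TEAD1 by -0.36 ± 0.06 (adjusted p = 1.15e-04) and TEAD4 by 0.41 ± 0.09 (adjusted p = 0.00151). ANKRD1 then differed by 0.00 (-0.30 to 0.31).

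Against the null analog at 10 uM for 6 h, isopomiferin differed in 2 members (25.4% of all genes). TEAD1 was lower (log2 change -0.24 ± 0.06 (SE), adjusted p = 0.00327) and AJUBA higher (log2 change 0.83 ± 0.15 (SE), adjusted p = 4.39e-05). ANKRD1 differed by 0.17 (95% interval -0.08 to 0.42) and CCN1 by 0.22 (0.05 to 0.38, adjusted p = 0.0541), neither called. Pomiferin against the null analog differed in 6 members (29.9% of all genes): higher ANKRD1 (0.45, adjusted p = 0.00326), CCN1 (0.51, 6.57e-06), AJUBA (0.69, 4.13e-04) and TEAD1 (0.17, 0.0357), and lower TEAD2 (-0.21, 0.00874) and TEAD4 (-0.34, 0.00209). The TEAD1 call was lost without pomiferin replicate 1 or 2 or any null library (adjusted p up to 0.158), and the TEAD2 call without pomiferin replicate 1 or null replicate 2 (up to 0.117). CCN2, which rose with all 3 compounds at 10 uM, differed from the null analog by 0.29 (0.00 to 0.58) with isopomiferin and 0.24 (-0.05 to 0.53) with pomiferin, without a call.

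At 3 h and 10 uM, isopomiferin against pomiferin gave lower AMOTL2 (log2 change -0.65 ± 0.11 (SE), adjusted p = 3.38e-04) and lower CCN1 (log2 change -0.33 ± 0.09 (SE), adjusted p = 0.0257), with 2.43% of all genes called. The CCN1 call was lost without any isopomiferin library or pomiferin replicate 1 or 2 (adjusted p up to 0.116). Against the null analog, CCN1 and CCN2 were higher by 0.37 and 0.65 with isopomiferin (4.81% of all genes), and CCN1, CCN2 and AMOTL2 by 0.70, 0.60 and 0.38 with pomiferin (3.28%). Of these 5 calls only CCN1 with pomiferin held without each library. The isopomiferin calls were lost without isopomiferin replicate 2 or null replicate 1 or 3, and for CCN2 also isopomiferin replicate 1 (adjusted p up to 0.0760 for CCN1 and 0.115 for CCN2). The pomiferin calls of CCN2 and AMOTL2 were lost without pomiferin replicate 3 or null replicate 1 or 3, and further without pomiferin replicate 2 for CCN2 and 1 for AMOTL2 (up to 0.203 and 0.227). At 3 uM for 3 h edgeR and DESeq2 called no member between isopomiferin and pomiferin (0.620% of all genes), and 1 had an unadjusted p under 0.05.

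Dose and time were tested as differences of their own. At 6 h, 10 uM against 3 uM of isopomiferin gave higher AJUBA (0.82), ANKRD1 (0.56) and CCN1 (0.30), with 5.06% of all genes called. With pomiferin, 10 uM gave higher ANKRD1 (0.85), AJUBA (0.83), CCN1 (0.68), CCN2 (0.54) and AMOTL2 (0.35) and lower YAP1 (-0.94), with 17.6% called. YAP1 was at 0.589, 1.50 and 1.59 CPM at 10 uM, against 1.45, 2.44 and 3.07 CPM at 3 uM, with overlap, and its call was lost without pomiferin 3 uM replicate 1 or 2 or 10 uM replicate 3 (adjusted p up to 0.251). The isopomiferin calls of CCN1 and ANKRD1 were lost without 3 uM replicate 1 or 10 uM replicate 2 or 3, and that of ANKRD1 also without 3 uM replicate 3 (up to 0.300 and 0.0950). The pomiferin call of CCN2 was lost without 3 uM replicate 1 (0.0562) and that of AMOTL2 without 3 uM replicate 1 or 3 or 10 uM replicate 2 (up to 0.0901). At 3 h the dose difference of pomiferin gave CCN1 alone (0.54, adjusted p = 8.72e-05; 1.08% of all genes). For isopomiferin edgeR and DESeq2 called no member (0.287%), and 1 had an unadjusted p under 0.05.

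The change at 10 uM differed between 6 h and 3 h for 4 members with pomiferin and 2 with isopomiferin. With pomiferin the 6 h change exceeded the 3 h change for ANKRD1 (difference of log2 changes 0.69 ± 0.23, adjusted p = 0.0442) and AJUBA (0.69 ± 0.23, 0.0448), and was lower for TEAD4 (-0.40 ± 0.12, 0.0301) and TEAD2 (-0.28 ± 0.09, 0.0357), with 11.7% of all genes called. With isopomiferin it was higher for AJUBA (0.85 ± 0.23, 0.0231) and lower for TEAD1 (-0.37 ± 0.09, 0.00636), with 5.51% called. Only the TEAD1 call held without each of 12 libraries. The other 5 calls were each lost without 5 to 9 single libraries, with an adjusted p of up to 0.141, and DMSO replicate 1 of 3 h was among those libraries for all 5. CCN1 differed between the times by -0.02 (95% interval -0.29 to 0.25) with isopomiferin and -0.06 (-0.32 to 0.19) with pomiferin, without a call. With the null analog edgeR and DESeq2 called no member (0.0326%), and 2 had an unadjusted p under 0.05.

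Of 25 Hippo pathway genes, isopomiferin at 10 uM for 6 h raised 1 and lowered 4 (25.4% of all genes were called), and pomiferin raised 4 and lowered 4 (31.5%). These shares are near those over all genes. AMOT, an angiomotin, changed by -0.59 with isopomiferin and -0.62 with pomiferin, and FRMD6, an upstream scaffold, by -0.32 and -0.48. DCHS1, a protocadherin of the pathway, rose by 0.48 with pomiferin. Of the coactivators and cofactors, 3 of 5 were tested. WWTR1 rose by 0.27 with isopomiferin and 0.40 with pomiferin, and VGLL4 by 0.34 with pomiferin.

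Of a wider list of 18 genes often used as a YAP signature, 17 were tested: 3 rose and 4 fell with isopomiferin (median log2 change 0.27; 25.4% of all genes called) and 4 rose and 3 fell with pomiferin (0.37; 31.5%). GADD45A, which also answers to DNA damage, rose by 0.87 and 1.14. ARHGEF17 and FJX1 fell, by 0.63 and 0.61 with isopomiferin and by 0.47 and 0.51 with pomiferin. The null analog changed 1 gene of this list, GADD45A (0.33), and no Hippo gene, where edgeR called 0.965% of all genes.

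Genes of AP-1 and SRF, factors known to share targets with TEAD, were counted beside them. Of 14 AP-1 and immediate early genes, 11 rose with isopomiferin (median 0.67; 25.4% of all genes called in either direction) and 10 with pomiferin (0.98; 31.5%) at 10 uM for 6 h, and none fell. ATF3 rose by 3.33 and 3.79, and FOSL1, a FOS-family partner in AP-1, by 1.25 and 2.07. At 3 h, 10 of the 14 rose with isopomiferin and 11 with pomiferin, with 4.19% of all genes called by each. The null analog raised 3 at 6 h (0.965% of all genes) and none at 3 h (0.104%). Of 16 SRF target and actin cytoskeleton genes, pomiferin raised 10 and lowered 1 at 6 h (median 0.29), isopomiferin raised 2 and lowered 1 (0.10) and the null analog raised 3. ZYX, a focal adhesion protein, rose by 0.39 with isopomiferin, 0.71 with pomiferin and 0.32 with the null analog. Adrenergic markers fell in the same libraries (8 of 12 with isopomiferin and 10 of 12 with pomiferin, 1 rising in each); their part in the members' changes was not tested.

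Genes whose TruSeq pattern was among the most like that of the targets were found by Pearson correlation of log2(CPM + 1) group means over the 13 groups, among 10671 genes. The groups share the cell line and the vehicle, and the values are a description. For CCN1 they included DKK1 (0.96), ZNF264 (0.89), PXDC1 (0.89) and CCN2 (0.88). For CCN2 they included PXDC1 (0.94), ANKRD1 (0.92), LOXL2 (0.91) and SLC35G2 (0.91). For ANKRD1 they included TAGLN (0.94), RBM48 (0.93), MAN1A1 (0.93) and SEMA3C (0.92). For TEAD4 they were PGM1 (0.95), FAM86C1P (0.94), RTF2 (0.93), JPH4 (0.93) and SNX17 (0.92), none of them a member.

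In the third experiment, pomiferin at 24 h raised ANKRD1, CCN1, CCN2 and TEAD3, and ANKRD1 was called in more treatments than any other member. Its mean in DMSO wells was 25.5 CPM, against 2.86 for CCN1, 1.40 for CCN2 and 2.20 for AJUBA. Changes of these lower targets were harder to call, so fewer calls need not mean fewer changes. Over 29 treatments, 25 of 232 member tests (10.8%) were called, 21 up and 4 down, with 9.57% called over all genes. ANKRD1 rose in 10 of the 29 and fell in none. Of the other members, TEAD3 and CCN1 rose in 4 treatments each, TEAD2 fell in 3, AJUBA rose in 2 and fell in 1, CCN2 rose in 1, and TEAD1 and AMOTL2 were not called by edgeR (2 and 6 tests at an unadjusted p under 0.05; DESeq2 called 0 and 1). The TEAD3 call of Pom Triacetate was lost with DESeq2 (adjusted p 0.0721), the older quasi-likelihood method (0.0978), the replicate block (0.256) and without 8 of 12 single wells. That of H-Pomiferin was lost with the older quasi-likelihood method (0.0596), the replicate block (0.195) and without 5 of 12 single wells. In the third experiment the replicate block was fitted to 93 of 96 libraries, without DMSO replicates 4, 5 and 6. A call lost with it cannot be assigned to the block or to the fewer controls.

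With pomiferin at 10, where 31.5% of all genes were called, 6 members changed. ANKRD1 was at 140.2, 158 and 215 CPM, against a lowest, median and highest of 9.76, 24.2 and 48.0 CPM in the 9 DMSO wells (log2 change 2.77 ± 0.35 (SE), adjusted p = 4.76e-10). CCN1 was at 8.66, 10.5 and 10.5 CPM, against 1.21, 3.00 and 5.64 CPM (log2 change 1.73 ± 0.36 (SE), adjusted p = 5.92e-05), and CCN2 at 4.10, 5.91 and 6.69 CPM, against 0.195, 1.31 and 2.77 CPM (log2 change 2.01 ± 0.49 (SE), adjusted p = 4.94e-04). TEAD3 was at 32.3, 39.4 and 51.0 CPM, against 4.90, 9.94 and 18.2 CPM (log2 change 1.98 ± 0.33 (SE), adjusted p = 1.08e-06). All treated wells of these 4 genes lay above all DMSO wells.

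TEAD2 was at 0, 4.22 and 5.91 CPM with pomiferin at 10, against 4.12, 13.3 and 17.3 CPM in DMSO, with overlap (log2 change -1.70 ± 0.60 (SE), adjusted p = 0.0231); the call was lost without pomiferin replicate 1 or 2 (adjusted p up to 0.185), and the log2 change was -2.40 without replicate 3. AJUBA was at 0, 0.394 and 0.422 CPM, against 0.229, 1.64 and 4.55 CPM, also with overlap (log2 change -2.76 ± 1.05 (SE), adjusted p = 0.0349). That call was lost with no filter on low counts (0.0744) and without any pomiferin well, DMSO replicate 3 or DMSO replicate 2.1 (up to 0.137). Its direction here was opposite to that at 6 h in the TruSeq libraries; assay, dose and time all differed, and the difference was not tested. Among AP-1 and immediate early genes 10 of 11 tested rose (median 2.64), FOSL1 by 5.59 and ATF3 by 4.98. Of the 15 SRF targets tested, 5 rose and 1 fell, and 11 of 12 adrenergic markers fell.

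Lower pomiferin doses gave part of this pattern. At 3.3, where 18.8% of all genes were called, ANKRD1 was at 54.8, 98.4 and 142 CPM (1.97, adjusted p = 1.53e-05), CCN1 at 6.76, 6.99 and 11.1 CPM (1.48, 0.00129) and TEAD3 at 22.8, 36.1 and 47.7 CPM (1.77, 2.93e-05), all above DMSO. The CCN1 call was lost without pomiferin 3.3 replicate 1 (adjusted p 0.0621). At 1, AJUBA had a log2 change of 1.64 (adjusted p = 0.0105), with overlap; the call was lost with DESeq2 (adjusted p 0.0787), the older quasi-likelihood method or without pomiferin 1 replicate 2 (up to 0.353). ANKRD1 was at 0.78 there and not called. Isopomiferin at 15 changed 2 members, where 20.0% of all genes were called. ANKRD1 was at 54.7, 68.3 and 71.9 CPM (log2 change 1.38 ± 0.37 (SE), adjusted p = 0.00357) and TEAD2 at 1.52, 3.17 and 3.49 CPM (log2 change -2.07 ± 0.59 (SE), adjusted p = 0.00683), both outside the DMSO range. The TEAD2 call was lost without isopomiferin replicate 3 (adjusted p 0.0599). ANKRD1 stood at 0.46 with isopomiferin at 5 and 0.28 at 1, not called. The pomiferin and isopomiferin doses differ except at 1, so they are given side by side only.

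Relatives of pomiferin were given at 10 as well, and 4 were compared with it directly, a comparison chosen after seeing the data (9.68% of all gene tests called, 8 of 32 member tests). Against DMSO, ANKRD1 rose with all 4: Pom Triacetate (84.0, 93.9 and 100.03 CPM, 1.88), H-Osajin (66.2, 68.6 and 77.2 CPM, 1.49), H-Pomiferin (60.8, 65.3 and 77.3 CPM, 1.44) and Osajin (45.3, 55.0 and 68.2 CPM, 1.17, with overlap). The Osajin call was lost with the replicate block (adjusted p 0.0592) and without Osajin replicate 1 or 2 (up to 0.127). The H-Osajin call was lost with the older quasi-likelihood method (0.0759), the replicate block (0.131) or without any H-Osajin well or DMSO replicate 5 (up to 0.145). CCN1 also rose with H-Osajin, at 6.83, 6.99 and 9.29 CPM, above the DMSO wells at 1.21 to 5.64 CPM (log2 change 1.38, adjusted p = 0.0277). That call was lost with DESeq2 (adjusted p 0.0540), no filter on low counts (0.0822), the older quasi-likelihood method (0.165) and the replicate block (0.0857). It was also lost without any H-Osajin well or DMSO replicate 3 or 2.1 (up to 0.231). TEAD2 fell with Osajin, at 0.762, 1.85 and 7.18 CPM, against 4.12, 13.3 and 17.3 CPM in DMSO, with overlap (log2 change -1.98, adjusted p = 0.0141). The TEAD2 call was lost without Osajin replicate 1 or 2 (adjusted p up to 0.137), and the log2 change was -3.09 without replicate 3. Against pomiferin, ANKRD1 was lower with Osajin (log2 change -1.60 ± 0.47 (SE), adjusted p = 0.0222) and with H-Osajin (log2 change -1.27 ± 0.45 (SE), adjusted p = 0.0320). It differed by -1.33 (95% interval -2.25 to -0.42) with H-Pomiferin and -0.88 (-1.78 to 0.01) with Pom Triacetate, not called. TEAD3 was lower than with pomiferin under H-Osajin (-1.92, 4.81e-04), where TEAD2 was higher (1.89, 0.0319), and TEAD1 was lower under Osajin (-1.36, 0.0420). AJUBA was higher than with pomiferin under Osajin (3.63), H-Pomiferin (3.37) and H-Osajin (3.13), with pomiferin wells at 0 to 0.422 CPM. All 3 AJUBA calls were lost with no filter on low counts (adjusted p 0.0562, 0.105 and 0.0668) and without any 1 of the pomiferin wells (up to 0.158), and DESeq2 gave no adjusted p for that of H-Pomiferin. The AJUBA call under H-Osajin was also lost without H-Osajin replicate 1, with a log2 change of 2.22 (adjusted p 0.278). Of the 8 calls between relatives and pomiferin, TEAD3 under H-Osajin held without each well in turn, and the others were each lost without 3 to 6 of 6 single wells. The ANKRD1 differences were among these, both lost without pomiferin replicate 2 (adjusted p up to 0.119 for Osajin and 0.160 for H-Osajin). TEAD1 under Osajin differed by -0.26 without pomiferin replicate 1 (adjusted p 0.824). For Pom Triacetate edgeR and DESeq2 called no member against pomiferin, and 4 had an unadjusted p under 0.05.

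**Figure D3:**
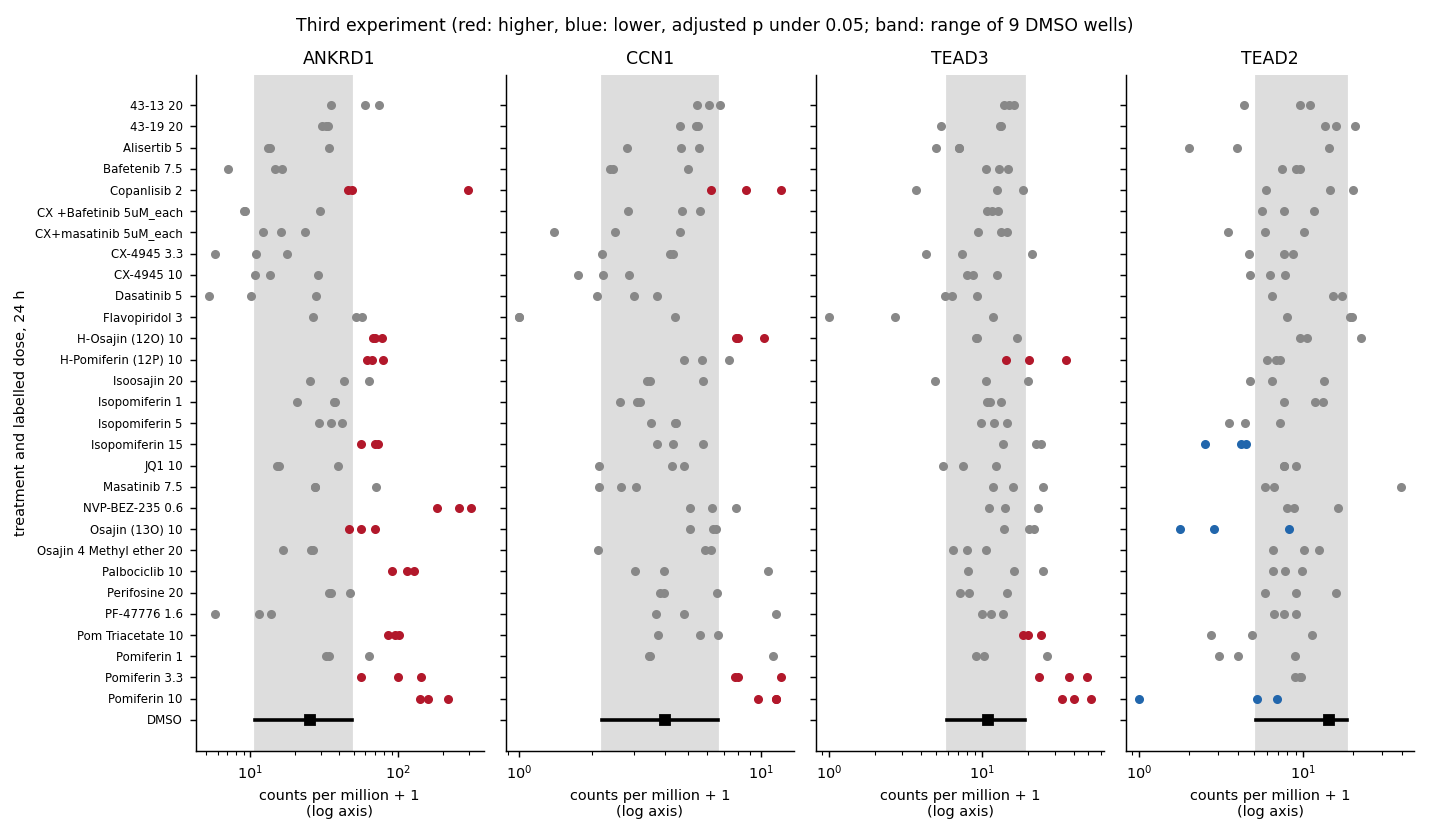
CPM per well of the third experiment for selected members, by treatment, set against the 9 DMSO wells. The 3 ANKRD1 wells of pomiferin at 10 lie between 140.2 and 215 CPM, above the highest DMSO well at 48.0 CPM.

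Kinase inhibitors with other targets also raised ANKRD1. NVP-BEZ-235 at 0.6, which blocks PI3K and mTOR, gave 181, 255 and 308 CPM, against 9.76, 24.2 and 48.0 CPM in DMSO, the highest of the 29 treatments (log2 change 3.30 ± 0.34 (SE), adjusted p = 4.37e-12). Palbociclib at 10, a CDK4 and CDK6 inhibitor, gave 89.0, 113 and 126 CPM (log2 change 2.13 ± 0.36 (SE), adjusted p = 8.72e-06). Copanlisib at 2, a PI3K inhibitor, gave 44.4, 47.6 and 294 CPM (log2 change 2.35 ± 0.36 (SE), adjusted p = 1.94e-06), 1 well far above the others and the rest inside the DMSO range. The call was lost without that well, replicate 3 (adjusted p 0.276). CCN1 was called there too (1.43), a call lost with no filter on low counts (0.126) or without Copanlisib replicate 2 or 3 (up to 0.223). The ANKRD1 calls of NVP-BEZ-235 and palbociclib held without each well in turn and with DESeq2. With Isoosajin at 20, AJUBA was at 4.96, 6.25 and 9.81 CPM (log2 change 1.73, adjusted p = 0.00429), a call lost with DESeq2 (adjusted p 0.0551), with the older quasi-likelihood method (0.113) and without Isoosajin replicate 3 (0.139).

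JQ1 and flavopiridol, and CX-4945 and dasatinib at the doses named next, gave no called member. With JQ1 at 10, a BET bromodomain inhibitor, 17.3% of all genes and no member were called by edgeR, none had an unadjusted p under 0.05 and DESeq2 called none. With flavopiridol at 3, a CDK9 inhibitor, 21.2% of all genes and no member were called, with none at an unadjusted p under 0.05 and none by DESeq2. The median log2 change of the members was -0.96 with flavopiridol, against -0.297 over all genes, and the lowest was -5.09. The lack of calls therefore does not show that the members were unchanged. With CX-4945 at 10, a CK2 inhibitor, 17.0% of all genes and no member were called by edgeR or DESeq2, and 3 members had an unadjusted p under 0.05. With CX-4945 at 3.3, edgeR called no member (2.92% of all genes), 4 had an unadjusted p under 0.05, and DESeq2 called 1, AMOTL2, whose edgeR log2 change was -2.32 (adjusted p = 0.0616). With dasatinib at 5, an SRC and ABL inhibitor, 1.30% of all genes and no member were called by edgeR or DESeq2, and 2 members had an unadjusted p under 0.05. The median log2 change of the members was -0.25 with JQ1, -0.86 with CX-4945 at 10, -0.89 with CX-4945 at 3.3 and -0.66 with dasatinib. Over all genes it was -0.00, 0.03, -0.01 and -0.02. For these treatments too, the lack of calls does not show that the members were unchanged. ANKRD1 stood at 9.72, 12.6 and 27.9 CPM with CX-4945 at 10 (-0.59, 95% interval -1.48 to 0.30) and 4.22, 9.02 and 26.6 CPM with dasatinib (-1.10, -2.07 to -0.13). Actin genes of the SRF list moved there: 7 of 15 fell with CX-4945, ACTA2 by 3.33 and TAGLN by 2.62, and 4 with dasatinib, ACTA2 and TAGLN by 4.01 each.

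In the second experiment the microtubule poison podofilox raised ANKRD1, AMOTL2 and CCN1, and the statin cerivastatin lowered ANKRD1. At 24 h, 22 of 240 member tests (9.17%) were called over 30 treatments, 14 up and 8 down, against 4.41% over all genes. At 6 h, 9 of 240 (3.75%) were called, 6 up and 3 down, against 0.557%. ANKRD1 accounted for 11 of the 24 h calls, 5 up and 6 down, and for 6 of the 6 h calls, 3 up and 3 down. TEAD1, TEAD2, TEAD3, TEAD4 and AJUBA were not called at 6 h by edgeR or DESeq2, with 1 to 7 of 30 tests each at an unadjusted p under 0.05.

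Podofilox at 1 mM gave 373, 472 and 724 CPM of ANKRD1 at 6 h, against a lowest, median and highest of 79.3, 99.6 and 188 CPM in 6 Control wells (log2 change 2.21 ± 0.27 (SE), adjusted p = 1.89e-09; 2.66% of all genes called). At 24 h it gave 526, 635 and 1606 CPM, against 49.8, 71.5 and 122 CPM (log2 change 3.49 ± 0.29 (SE), adjusted p = 6.06e-18; 12.6% called), and the log2 change was 2.87 without podofilox replicate 3. At 0.33 mM ANKRD1 was at 240.1, 248 and 386 CPM at 6 h (1.37, a call lost without podofilox 0.33 mM replicate 3, adjusted p 0.0528) and 800.3, 1324 and 1404 CPM at 24 h (3.85, adjusted p = 3.04e-20). No podofilox well overlapped the Control wells at either time.

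AMOTL2 rose with podofilox to 19.4, 38.6 and 39.8 CPM at 1 mM and 24 h, against 3.28, 4.44 and 5.78 CPM in Control wells (log2 change 2.86 ± 0.47 (SE), adjusted p = 9.44e-07), and to 32.5, 38.2 and 42.4 CPM at 0.33 mM (3.04). At 6 h and 1 mM it was at 9.71, 13.5 and 23.7 CPM, against 1.21, 4.96 and 9.66 CPM (log2 change 1.84 ± 0.52 (SE), adjusted p = 0.0268), a call lost with DESeq2 (adjusted p 0.151), with no filter on low counts (0.0544), with the older quasi-likelihood method (0.243) and without podofilox replicate 2 or 3 or Control replicate 1.1 or 2.1 (up to 0.358). CCN1 was at 15.9, 44.0 and 50.5 CPM at 1 mM and 24 h, against 3.28, 6.09 and 10.97 CPM (log2 change 2.38 ± 0.47 (SE), adjusted p = 7.65e-05), and at 20.7, 25.8 and 47.0 CPM at 0.33 mM and 6 h, against 0, 10.8 and 13.9 CPM (log2 change 1.81 ± 0.42 (SE), adjusted p = 0.00333). The 6 h call of CCN1 was lost with DESeq2 (adjusted p 0.0509), with the older quasi-likelihood method (0.0888) and without podofilox 0.33 mM replicate 3 (0.161). TEAD3 was at 26.9, 51.2 and 66.0 CPM at 1 mM and 24 h, against 5.03, 20.0 and 28.2 CPM, with overlap (log2 change 1.32 ± 0.42 (SE), adjusted p = 0.0257); the call was lost with the older quasi-likelihood method (0.0514) and without podofilox replicate 1 or 3 or Control replicate 3 (up to 0.202). SRF targets rose in the same wells, 9 of 15 at 24 h and 5 of 15 at 6 h, with none falling, TAGLN by 2.08 and CNN1 by 3.27 at 24 h. Of the AP-1 and immediate early genes, 9 of 12 rose at 6 h and 7 of 11 at 24 h. Adrenergic markers fell in the same wells, 3 of 12 at 6 h (median -0.69) and 8 of 11 at 24 h (median -1.23). Of the 4 markers of other cell types that were tested, 2 fell at 24 h and none at 6 h; the part of these markers in the members' changes was not tested.

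Cerivastatin, which blocks the mevalonate pathway, gave 5.88, 10.4 and 19.7 CPM of ANKRD1 at 5 mM and 24 h, against 49.8, 71.5 and 122 CPM in Control wells (log2 change -2.76 ± 0.53 (SE), adjusted p = 3.71e-04; 1.41% of all genes called). At 1.7 mM it was at 13.7, 18.6 and 29.1 CPM (log2 change -1.998 ± 0.51 (SE), adjusted p = 0.0286), a call lost without any 1.7 mM well or Control replicate 2 or 1.1 (adjusted p up to 0.281). All 6 cerivastatin wells at 24 h lay below all Control wells. At 6 h ANKRD1 was at 97.4, 112 and 115 CPM with 5 mM, inside the Control range of 79.3 to 188 CPM (-0.06), and edgeR and DESeq2 called no member, with none at an unadjusted p under 0.05 (0.0175% of all genes). ANKRD1 was the 1 member called at 24 h. Of 15 SRF targets, 5 fell and none rose, ACTA2 by 3.64, TAGLN by 1.67 and ACTG1 by 1.06. Of 11 AP-1 and immediate early genes, 3 rose and none fell, with a median log2 change of -0.71 over the 11.

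NSC255109 at 2.5 mM lowered targets and raised TEAD3 at 24 h, where 18.4% of all genes were called. ANKRD1 was at 5.99, 11.5 and 13.4 CPM, against 49.8, 71.5 and 122 CPM in Control wells (log2 change -3.01 ± 0.59 (SE), adjusted p = 5.26e-05). CCN1 had 0 counts in all 3 wells (3196745 counts in all), which allows up to 0.938 CPM over the group and makes it at least 7.07-fold lower than the Control mean (adjusted p = 0.0245), a call lost without any 1 of the 3 wells (up to 0.103). TEAD3 was at 51.5, 61.7 and 72.8 CPM, against 5.03, 20.0 and 28.2 CPM (log2 change 1.69 ± 0.40 (SE), adjusted p = 0.00105), and TEAD1 had a log2 change of 0.75 with overlap (adjusted p = 0.0490), a call lost with DESeq2 (0.0538), the older quasi-likelihood method (0.0798) and 4 of 9 single wells left out (up to 0.464): NSC255109 replicate 1 or 3 and Control replicate 1.1 or 3.1. At 0.85 mM ANKRD1 was at 2.20, 3.68 and 34.6 CPM, 1 well far above the others and all below the Control wells (log2 change -2.59, adjusted p = 5.45e-04). The call held without each well, with a log2 change of -4.78 without NSC255109 0.85 mM replicate 2 and -2.05 without replicate 3. TEAD3 rose at 0.85 mM (1.51), a call lost without replicate 3 of that dose (adjusted p 0.130). ANKRD1 was also lower at 6 h, at 17.8, 43.8 and 46.6 CPM with 2.5 mM (-1.66), a call lost without NSC255109 replicate 2 (0.149). With 0.85 mM at 6 h it was at 29.1, 40.1 and 51.4 CPM, against 79.3, 99.6 and 188 CPM in Control wells (log2 change -1.47, adjusted p = 0.0188), a call lost without any 0.85 mM well or Control replicate 3 (up to 0.171).

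NSC3905 at 1 mM lowered ANKRD1 at 24 h, a call that held without each well and under the other alternatives. Its log2 change lay between -2.12 and -1.86 over these fits (adjusted p up to 0.0450). At 6 h no member was called with 1 mM. NSC3905 at 3 mM lowered ANKRD1 at both times (-1.44 at 6 h and -1.87 at 24 h). With 3 mM the 6 h call was lost without NSC3905 replicate 2 or 3 or Control replicate 3 (adjusted p up to 0.223). The 24 h call with 3 mM was lost without NSC3905 replicate 2 (0.0756), and without replicate 1 its log2 change was -2.52. Cloxyquin at 5 mM raised ANKRD1 at 6 h (1.53), a call that held with DESeq2 and without each well. At 24 h its log2 change was 1.08 (adjusted p = 0.0460), lost with DESeq2 (0.181) and without 7 of 9 single wells, all 3 cloxyquin wells and Control replicates 1, 3, 2.1 and 3.1 (up to 0.177). Narasin at 24 h gave 1.02 at 1 mM and 1.26 at 0.33 mM; DESeq2 called neither (adjusted p 0.0961 and 0.0567). The 1 mM call was also lost without narasin replicate 1 or 2 or Control replicate 1 (up to 0.183), and the 0.33 mM call without narasin replicate 2 (0.448).

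ANKRD1 was not called with isopomiferin at 10 mM in the second experiment. At 24 h ANKRD1 was at 96.2, 118 and 119 CPM, against 49.8, 71.5 and 122 CPM in Control wells (0.45, 95% interval -0.24 to 1.13). TEAD3 rose (31.3, 50.7 and 93.5 CPM, against 5.03, 20.0 and 28.2 CPM; log2 change 1.56 ± 0.40 (SE), adjusted p = 0.00214) and TEAD2 was lower with overlap (4.30, 5.72 and 13.3 CPM, against 11.8, 22.6 and 24.9 CPM; log2 change -1.35 ± 0.50 (SE), adjusted p = 0.0486), where 18.3% of all genes were called. The TEAD3 call was lost without isopomiferin replicate 2 (adjusted p 0.126). The TEAD2 call was lost with relative log expression scaling (0.0619), with no filter on low counts (0.0782), with the older quasi-likelihood method (0.0520) and without isopomiferin replicate 2 or 3 or Control replicate 1, 2, 2.1 or 3 (up to 0.247), and the log2 change was -2.01 without isopomiferin replicate 1. At 6 h edgeR and DESeq2 called no member (1.30% of all genes), 3 had an unadjusted p under 0.05, and ANKRD1 stood at 0.11 (95% interval -0.54 to 0.76).

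**Figure D4:**
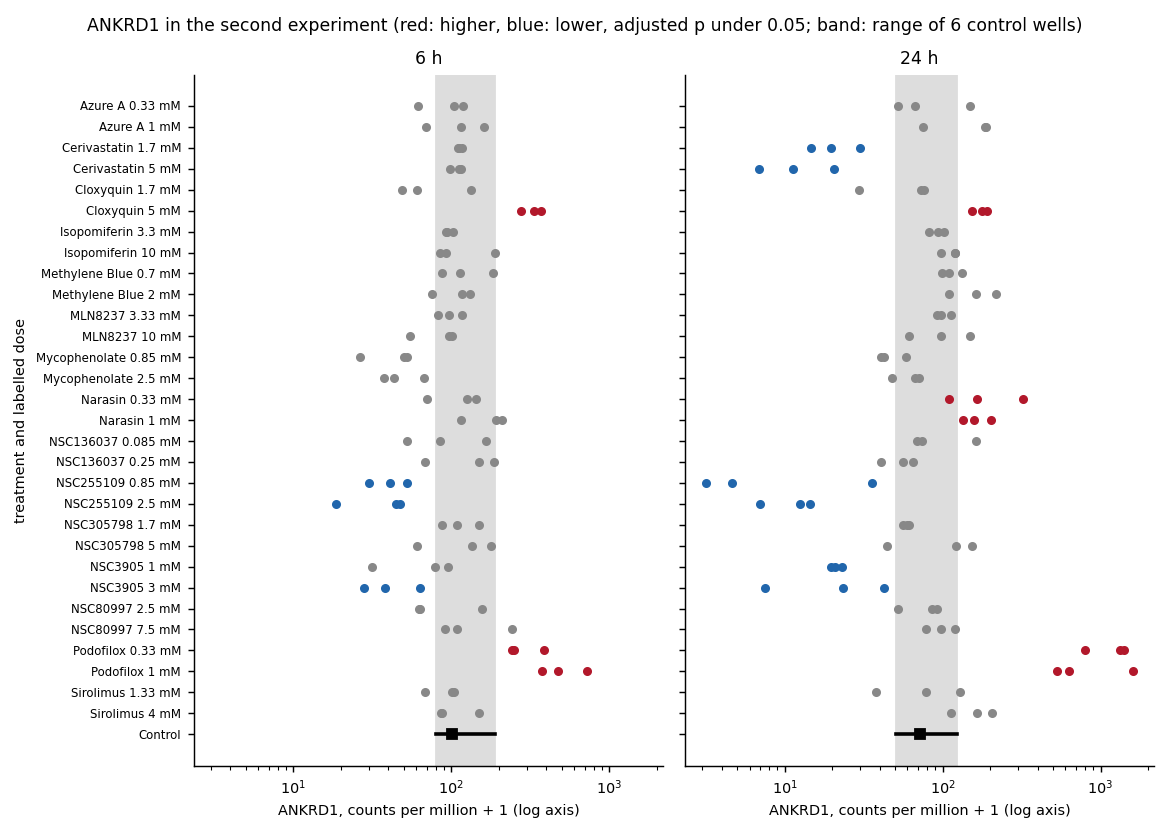
ANKRD1 in CPM on a log axis per well for treatments of the second experiment, at 6 h and 24 h, set against the Control wells. The podofilox wells at 24 h lie between 526 and 1606 CPM, above the Control wells, and the cerivastatin wells at 24 h lie between 5.88 and 29.1 CPM, below them.

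In the first experiment 32 of 810 member tests (3.95%) were called over 90 compounds, 16 up and 16 down, where 3.14% were called over all genes; 104 had an unadjusted p under 0.05. ANKRD1 gave 17 of the 32, 7 up and 10 down. Wells without DMSO, compared with DMSO wells, gave no called member by edgeR (0.0521% of all genes). Podofilox at 2 raised 4 members, where 6.98% of all genes were called. ANKRD1 was at 601 and 698 CPM, against a lowest, median and highest of 18.2, 39.5 and 75.5 CPM in 8 DMSO wells (log2 change 3.92 ± 0.29 (SE), adjusted p = 1.09e-23). AMOTL2 was at 14.8 and 29.8 CPM, against 0.866, 4.03 and 9.74 CPM (log2 change 2.43 ± 0.47 (SE), adjusted p = 5.24e-05), and CCN2 at 6.46 and 7.45 CPM, against 0, 0.253 and 3.03 CPM (log2 change 2.92 ± 0.87 (SE), adjusted p = 0.0206). CCN1 was at 0.923 and 13.2 CPM, with 1 well inside the DMSO range (2.18, adjusted p = 0.0425). Without the filter on low counts the calls of CCN2 (adjusted p 0.0702) and CCN1 (0.152) were lost, and that of CCN1 was also lost without the plate block (0.212).

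Other rises of ANKRD1 came with disulfiram at 0.15 (117 and 141 CPM, 1.59), chloroxine at 15 (114 and 124 CPM, 1.47), nitroxoline, benzoxiquine, methyl gambogate and isopomiferin at 15 (98.9 and 114 CPM, log2 change 1.32 ± 0.34 (SE), adjusted p = 0.00271). Chloroxine, nitroxoline and benzoxiquine are hydroxyquinoline derivatives, a class picked out after the values were seen. Of 3 others of that class, none was called: cloxyquin gave 71.5 and 97.4 CPM (0.97, adjusted p = 0.554), oxyquinoline hemisulfate 40.4 and 50.8 CPM (0.09, adjusted p = 0.964) and broxaldine 24.4 and 31.1 CPM (-0.63, adjusted p = 0.704). Without the plate as a replicate block the rises of nitroxoline, benzoxiquine and methyl gambogate were not called (adjusted p 0.117, 0.190 and 0.291). The deepest falls came with mitomycin at 7.5 (0 and 2.33 CPM, -4.88), doxorubicin at 3 (0.647 and 4.37 CPM, -4.12) and NSC639174 at 15 (1.96 and 3.90 CPM, -3.93). The 7 others that lowered it were daunorubicin, homidium bromide, NSC255109, proflavine, NSC69187, NSC45384 and teniposide, and those of NSC45384 (adjusted p 0.145) and teniposide (0.0814) were not called without the plate block.

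TEAD1 fell with 5 compounds and rose with 1. It had 0 counts in both dactinomycin wells, libraries of 263266 and 398391 counts, which allows up to 4.53 CPM over both and makes it at least 5.71-fold lower than the DMSO mean (adjusted p = 0.0266). It was at 2.87 and 4.87 CPM with daunorubicin (-2.86) and 4.66 and 8.15 CPM with mitomycin (-2.10), against 15.1, 23.3 and 43.3 CPM in DMSO. NSC122819 (-2.09) and teniposide (-1.61) also lowered it, and artesunate at 15 raised it (45.3 and 68.8 CPM, 1.14). The dactinomycin call was lost with relative log expression scaling (adjusted p 0.0642), and those of teniposide (0.0655) and artesunate (0.231) without the plate block. With relative log expression scaling the median of all genes shifted by 0.39 for dactinomycin and 0.40 for daunorubicin, and their changes are relative to that shift. YAP1 was called once, up with daunorubicin (2.44 and 11.5 CPM, adjusted p = 0.00819) in libraries of 398811 and 762359 counts. The log2 change was 4.43 (95% interval 1.79 to 7.08), against DMSO wells at 0 to 1.77 CPM with a median of 0. The call thus rests on few counts. TEAD3 was called up with NSC255109, mechlorethamine and nitroxoline, each overlapping DMSO wells that lay at 10.6 to 14.2 CPM on 1 plate and 0.507 to 3.65 CPM on the other, and none of the 3 was called without the plate block (adjusted p up to 0.745). NSC122819 raised AMOTL2 (1.48), not called without the plate block (adjusted p 0.107) or without the filter (0.0525), and proscillaridin lowered TEAD2 with overlap (-2.44), not called with relative log expression scaling (0.0601), without the filter (0.0672) or without libraries under 500000 counts (0.0511).

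**Figure D5:**
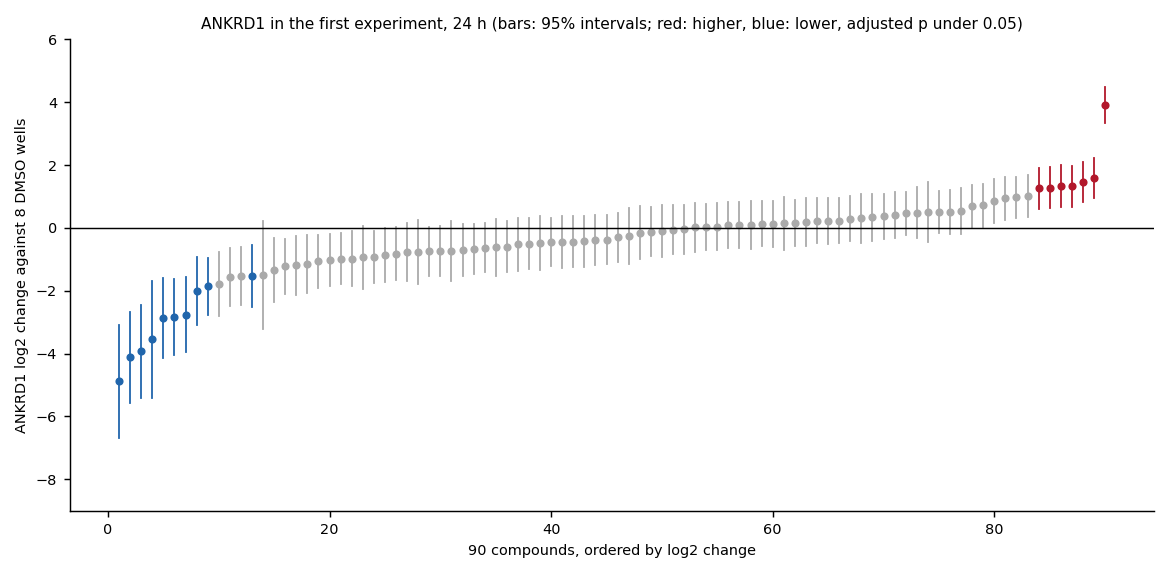
Log2 change of ANKRD1 against DMSO for each of the 90 compounds of the first experiment, ordered by size, with 95% intervals as bars and calls marked. The 7 called rises end with podofilox at 3.92 and the 10 called falls with mitomycin at -4.88.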

How the data were processed

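RNA of SK-N-BE(2) cells was measured in 519 libraries of 4 experiments, each with 1 deposited table. Its values are raw whole-number counts for each symbol, made with STAR on GRCh38 per the submitters' processing notes; the versions, the counter and the strand setting are not given in the sources used here. Groups were taken from the labels, and 0 columns belonged to no sample. The 92 spike-in rows of the first experiment were left out.

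The tests used edgeR 4.0.16 in R 4.3.3, with limma 3.58.1 and, as an alternative, DESeq2 1.42.0. Genes were kept by filterByExpr (minimum count 10), which left 15329 genes in the TruSeq experiment, 15596 in the third, 11460 at 6 h and 11539 at 24 h in the second and 13438 in the first. Scaling was by TMM. A single fit held every group of an experiment, or of 1 time point in the second. The two-sided quasi-likelihood test with Benjamini-Hochberg adjustment over all genes called changes at 0.05. Standard errors were taken from the F statistic. CPM use scaled library sizes, and wells are given in ascending order. The scripts were tested on simulated data.

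Replicate numbers were checked as pairs by the mean correlation of deviations between equal numbers. It was -0.0069 in the TruSeq experiment, 0.0012 and -0.00018 in the second (6 h and 24 h) and 0.0031 in the third, so no block was used there. In the first the number is the plate, the correlation was 0.39 and all 192 libraries were closest to their own plate, so plate was a block. The members and gene lists were chosen with earlier results of these data known. Every member was described. Named treatments were, per member and plate experiment, the 3 largest rises and falls among calls whose wells do not overlap the controls; others were picked after their values were seen. Other pathway genes named were at most the 3 with the smallest p of a list and comparison. Genes of like pattern were the 5 with the highest Pearson correlation among those with a mean of at least 5 CPM; some of these are not reported here. Intervals cover 95%, and a count of 0 allows 3 counts over the group, for counting error only. Promoter and gene positions come from RefSeq GRCh38.p14. Alternatives were another scaling, no filter, an older quasi-likelihood method, DESeq2, replicate blocks and leaving out libraries.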

Additional observations from a re-analysis of the deposited data

Results flagged for a closer look

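Among 26 groups of 4 to 10 control wells examined for a member, 3 held a well far from the others, and chance alone flags about 1 group in 20. ANKRD1 had 188 CPM in 1 Control well at 6 h in the second experiment, where the next highest was 116 CPM and the median 99.6 CPM. CCN1 had 5.64 CPM in 1 DMSO well of the third experiment, where the next was 3.44 CPM and the median 3.00 CPM. TEAD4 had 18.0 CPM in 1 well without DMSO of the first experiment, where the next was 8.10 CPM and the median 7.58 CPM.

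The change at 10 uM differed between 6 h and 3 h in the test of the difference itself (edgeR, 3 libraries per group). With isopomiferin the 6 h minus 3 h difference of log2 changes was -0.37 for TEAD1 and 0.85 for AJUBA. With pomiferin it was -0.28 for TEAD2, -0.40 for TEAD4, 0.69 for ANKRD1 and 0.69 for AJUBA. The TEAD1 call held without each of 12 libraries. The others were each lost without 5 to 9 single libraries (adjusted p up to 0.141).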

How the results depend on the processing

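None of the called members had the opposite direction under the alternatives run for it. In the second and the third experiment, leaving out single wells was chosen after seeing the data, except for cerivastatin 5 mM, podofilox 1 mM and isopomiferin 10 mM in the second and isopomiferin 15, pomiferin 10, JQ1 10, dasatinib 5, flavopiridol 3 and CX-4945 10 in the third. Counts of called members kept within 1.5 times of the reported count except as follows. The change between times in the TruSeq experiment had 6 calls, 3 with no filter on low counts and 1 to 6 without single libraries. With cerivastatin 5 mM, podofilox 1 mM and isopomiferin 10 mM at 6 h in the second experiment there were 2 calls, 1 with no filter, 1 with the older quasi-likelihood method, 1 with DESeq2 and 1 to 3 without single libraries. The 8 calls of pomiferin relatives against pomiferin were 2 to 8 without single wells, fewest without pomiferin replicate 2. The first experiment had 32 calls with the plate as a block, 20 with no replicate block, and 18, 19 or 20 with no replicate block and 1 DMSO well left out, an alternative chosen after seeing the data. Relative log expression scaling moved the median of all genes by over 0.1 in 14 of 91 comparisons of the first experiment and for flavopiridol in the third. The replicate block gave 30 calls for TruSeq treatments against 29 without it, and 21 against 25 over the third experiment. In the third it also left out DMSO replicates 4, 5 and 6. The replicate numbers are not shown to pair libraries. Of 65 TruSeq calls, fitting only the groups compared ended 10 and kept 39, no filter ended 6, and the older quasi-likelihood method and the replicate block 1 each. Leaving out each DMSO well with the plate as a block, and the older quasi-likelihood method in the first experiment, were not run. YAP1 passed the filter on low counts in neither the second experiment nor the third.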
